A study of Mus musculus with 4 samples.

Results

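The small RNAs described here are 48 of the 49997 rows of the count tables, namely all rows whose gene symbol starts with Snora (39 rows) or Scarna (9 rows). Of these, 42 had counts in all 4 libraries (33 Snora and 9 Scarna), and 6 were listed at 0 in every library. The libraries are stranded RNA sequencing of total RNA from wild-type iMOP cells, a mouse line of immortalized multipotent otic progenitors, the precursors of inner ear neurons and hair cells. Proliferating cells (2 libraries) grew in DMEM/F12 medium with B27 supplement, carbenicillin and the growth factor bFGF at 20 ng/ml. Neurons derived from the same line (2 libraries) grew in Neurobasal medium with N21 supplement, L-glutamine and K03861 at 1 µM, a compound that blocks CDK2, a kinase of the cell cycle. No group carries a mutation. The whole series comes from this 1 line, and the growth factor, the medium and the inhibitor differ together between the groups, so their parts cannot be told apart. The titles name each library a biological replicate, and those of replicate 2 also carry the words set 2.

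H/ACA RNAs fold into hairpins separated by a hinge box and ending in an ACA box. Each binds dyskerin, NHP2, NOP10 and GAR1 and uses its internal loops to pair with a target RNA, in which dyskerin converts a chosen uridine to pseudouridine. The Snora RNAs work in the nucleolus, mostly on ribosomal RNA. The Scarna RNAs are kept in Cajal bodies, where they guide modification of the spliceosomal RNAs. In mammals both kinds are cut mostly out of introns of other genes, many of them genes for ribosomal proteins and translation factors. The Scarna symbol covers several kinds of guide. As background, Scarna3a, Scarna3b, Scarna8 and Scarna13 are of the H/ACA kind, Scarna6 and Scarna10 are composite RNAs with both an H/ACA and a box C/D part, and Scarna2, Scarna9 and Scarna17 are box C/D guides, which direct methylation. The Scarna rows are therefore not all H/ACA RNAs.

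The sequences of 8 RNAs, chosen because they were among the most counted or kept a direction between the groups, were taken from the GENCODE M21 transcripts of mouse build GRCm38. In the following 6, capitals mark the match to the hinge box letters ANANNA that lies nearest the middle. Where present, the letters ACA placed 3 bases before the 3′ end are also in capitals. Snora81 holds 7 matches to ANANNA and Snora75 holds 6, so the marked match need not be the hinge box. Snora7a lies at chr6:115807975-115808114 on the minus strand in Rpl32, Snora75 at chr1:86351169-86351301 on the minus strand in the nucleolin gene Ncl, and Snora61 at chr4:132310240-132310369 on the plus strand in Snhg12. Snora81 lies at chr16:23110756-23110933 on the plus strand in the translation factor gene Eif4a2, Snora21 at chr11:97781639-97781775 on the minus strand in Rpl23, and Scarna8 at chr4:86586453-86586583 on the minus strand in Haus6.
Snora7a: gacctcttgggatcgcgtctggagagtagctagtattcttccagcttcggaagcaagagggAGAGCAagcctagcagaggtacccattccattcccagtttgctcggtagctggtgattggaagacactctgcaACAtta
Snora75: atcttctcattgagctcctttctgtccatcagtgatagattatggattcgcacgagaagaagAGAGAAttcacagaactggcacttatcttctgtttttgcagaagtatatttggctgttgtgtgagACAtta
Snora61: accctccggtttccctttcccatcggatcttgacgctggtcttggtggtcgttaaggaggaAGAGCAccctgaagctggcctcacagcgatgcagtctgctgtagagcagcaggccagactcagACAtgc
Snora81: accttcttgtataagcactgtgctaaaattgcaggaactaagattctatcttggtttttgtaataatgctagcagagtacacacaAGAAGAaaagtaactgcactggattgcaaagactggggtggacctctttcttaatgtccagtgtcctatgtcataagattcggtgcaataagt
Snora21: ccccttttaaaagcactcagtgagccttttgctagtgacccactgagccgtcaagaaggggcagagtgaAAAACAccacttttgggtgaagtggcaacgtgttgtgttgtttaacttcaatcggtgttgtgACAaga
Scarna8: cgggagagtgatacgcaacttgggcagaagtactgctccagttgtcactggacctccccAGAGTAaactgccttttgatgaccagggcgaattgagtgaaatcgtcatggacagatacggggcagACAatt

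Snora73a (chr4:132352775-132352979) and Snora73b (chr4:132352322-132352526) both lie on the minus strand in the host gene Snhg3. They are shown because their proportion differed between the groups. Both are 205 bases long, 96.6% identical without gaps, and the capitals mark the 7 positions at which they differ. RNAs of this family take part in the cleavage of the ribosomal RNA precursor.
Snora73a: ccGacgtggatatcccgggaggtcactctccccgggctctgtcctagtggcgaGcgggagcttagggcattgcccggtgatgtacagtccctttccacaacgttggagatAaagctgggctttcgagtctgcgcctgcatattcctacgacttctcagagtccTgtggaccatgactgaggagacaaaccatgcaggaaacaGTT
Snora73b: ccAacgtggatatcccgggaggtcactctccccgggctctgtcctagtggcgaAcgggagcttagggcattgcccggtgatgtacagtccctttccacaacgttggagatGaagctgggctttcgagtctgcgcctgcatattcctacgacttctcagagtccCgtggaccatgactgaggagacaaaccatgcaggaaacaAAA

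The letters ACA stood 3 bases before the 3′ end in 33 of the 39 Snora transcripts (84.6%), in 2 of the 9 Scarna transcripts (Scarna8 and Scarna13) and in 0 of 99 Snord transcripts, the box C/D RNAs of the nucleolus. The motif was read on the transcript strand only. ANANNA centred near the middle of the transcript occurred in 36 of 39 Snora, 6 of 9 Scarna and 49 of 99 Snord transcripts, so this degenerate motif is common in transcripts of other kinds. TGAG, the letters described for the Cajal body box in their common form, occurred in 17 of 39 Snora, 8 of 9 Scarna and 82 of 99 Snord transcripts. A match describes the letters and does not show a working box. For the 42 RNAs with counts, transcript lengths ran from 70 to 414 bases with a median of 135. Their GC content ran from 34.4% to 64.1% with a median of 48.5%. The ends of these annotated transcripts were not checked against reads, so an ACA missing at the end says only that the annotated end does not hold it.

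The whole tables set the frame for these values. Total counts ran from 7446361 to 14484011 per library, and the 18S ribosomal RNA row Rn18s-rs5 took 53.3% to 76.1% of them, more in both replicate 2 libraries. Shares and counts scaled to 1000000 per library (CPM) below leave out that row unless another scale is named. The neuron markers as a sum did not separate the groups. The summed CPM of 14 neuron markers was 596 and 1006 in the proliferating libraries and 641 and 1061 in the neurons, with Isl1 at 0 in all 4. Of the single neuron markers, only Map2 and Elavl4 had a higher CPM in both neuron libraries than in both proliferating ones. Map2 had 1143 and 682 counts against 1444 and 1379, and Elavl4 92 and 90 against 211 and 373. Tubb3 (233 and 1430 counts against 342 and 1026) had its highest CPM in proliferating replicate 2. Otic progenitor markers summed to 268 and 313 against 217 and 91.6, with Pax2 and Pax8 of the 7 at 0, and 7 glial markers to 134 and 175 against 56.6 and 4.62. The 4 cycling cell markers summed to 989 and 120 in proliferating replicates 1 and 2 and to 1108 and 545 in neuron replicates 1 and 2, so proliferating replicate 2 had the lowest level of all. The 5 hair cell markers summed to 0.260 to 27.4, with Pou4f3 and Otof at 0. The sums of the progenitor and glial lists were thus lower in both neuron libraries, and the sums of the other lists overlapped between the groups. Not every gene followed its sum: Eya1 of the progenitor list (62 and 27 counts against 103 and 57) was highest in neuron replicate 1. Gfap and Fabp7 held most of the glial counts. The part of these lists in the results was not tested. In bulk RNA, fewer cells of a type and less RNA per cell cannot be told apart.

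H/ACA and Cajal body RNAs held an almost constant share of the counts outside 18S. They held 122188 counts or 3.52% in proliferating replicate 1 (95% Wilson interval 3.50% to 3.54%) and 92476 counts or 3.56% in proliferating replicate 2 (3.54% to 3.59%). In the neurons they held 139844 counts or 3.63% in replicate 1 (3.61% to 3.65%) and 128788 counts or 3.72% in replicate 2 (3.70% to 3.74%). The neuron shares were both above the proliferating ones, by a small step. Group means were 3.54% ± 0.0328 in proliferating cells and 3.68% ± 0.0629 in neurons (SD, n = 2 each), a ratio of 1.04, and the ratio within replicate pairs was 1.03 and 1.04. With 2 libraries against 2 an exact two-sided permutation test cannot give a p under 0.33, so none was run on this share, and no p is given for it. Reads carried no molecular identifiers, so the intervals cover counting error only.

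That order of the groups held for this denominator and not for others. As a share of all counts, 18S included, the RNAs held 1.64% and 0.891% in proliferating replicates 1 and 2 and 1.48% and 0.889% in the neurons, where the replicate number set the level. After TMM scaling, which balances the bulk of the genes, their summed CPM was 10039 and 12518 in the proliferating libraries and 11763 and 13129 in the neurons. On that scale the groups overlapped and the neuron mean was 1.10 times the proliferating mean. The share of the 94 Snord rows outside 18S was 8.45% and 10.01% in the proliferating libraries and 10.82% and 10.60% in the neurons, so the box C/D RNAs spread more widely between the proliferating libraries than the H/ACA and Cajal body RNAs did.

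**Figure D1:**
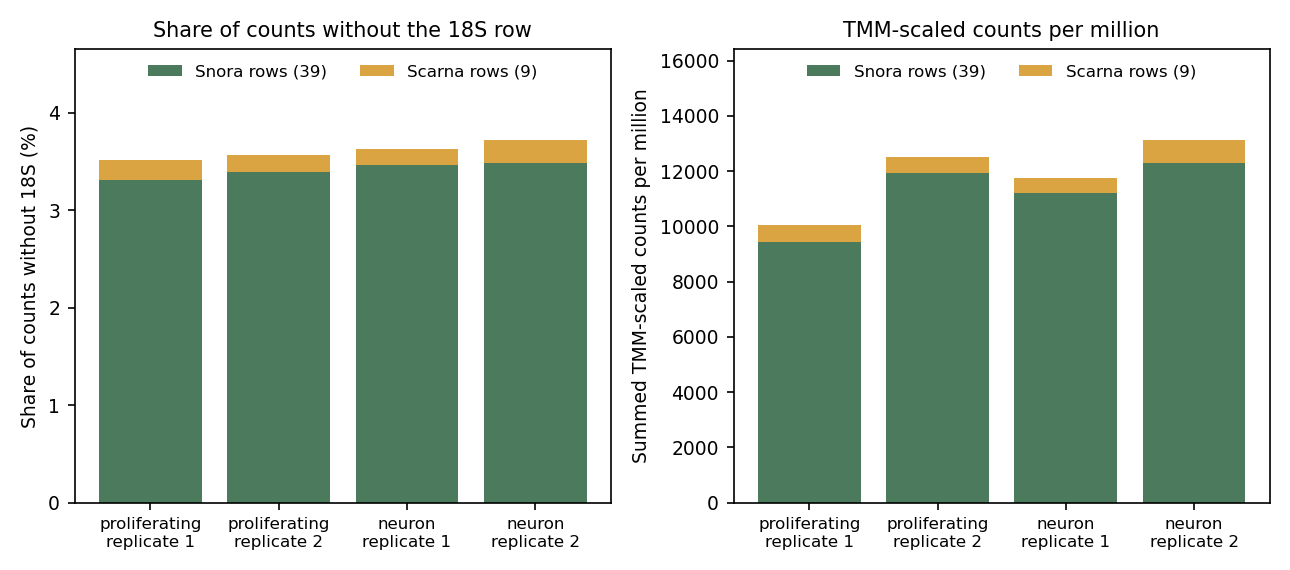
Stacked bars give, for each of the 4 libraries, the share of counts outside the 18S row in percent (left) and the summed TMM-scaled CPM (right) held by the Snora and Scarna rows. The shares lie between 3.52% and 3.72%, with both neuron libraries on top, while on the TMM scale proliferating replicate 2 (12518) stands above neuron replicate 1 (11763).

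The Snora rows made up nearly all of this share, with 3.35% ± 0.0608 in proliferating cells and 3.47% ± 0.0131 in neurons (SD, n = 2 each), and a ratio within pairs of 1.05 and 1.02. The Scarna rows held 0.186% ± 0.0280 and 0.205% ± 0.0498. Here the replicate pairs, matched by number on an assumption, went opposite ways, with ratios of 0.825 and 1.45. One RNA carried most of that opposition. Without Scarna2 the other 8 rows summed to 1204 and 1187 CPM in the proliferating libraries and 1211 and 1504 CPM in the neurons, with ratios of 1.01 and 1.27. By kind, the box C/D guides Scarna2, Scarna9 and Scarna17 together had ratios of 0.577 and 1.86, which Scarna2 and Scarna9 followed and Scarna17, lower in both pairs, did not. The 4 Cajal body RNAs of the H/ACA kind had 964 and 971 CPM in proliferating cells and 999.5 and 1259 CPM in neurons, with ratios of 1.04 and 1.30. The 2 composite RNAs stayed between 166 and 198 CPM in all libraries. This grouping was made after the values were seen.

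A few RNAs carried most of the counts. The 5 most counted RNAs held 44.3% and the first 13 held 79.9% of the counts of all 48 rows, as means over the 4 libraries. Snora73a was the most counted, with 3751 and 4079 CPM in proliferating cells and 3821 and 4399 CPM in neurons. Its groups overlapped, and neuron replicate 2 was the highest. Snora7a, from the ribosomal protein gene Rpl32, followed with 3398 and 3504 CPM in proliferating cells and 3178 and 4030 CPM in neurons, which lay on both sides of the proliferating values. Snora75 had 2965 and 2666 CPM in proliferating cells and 3138 and 3904 CPM in neurons, so both neuron libraries were higher. Snora73b had 3037 and 3259 CPM in proliferating cells and 2615 and 2675 CPM in neurons, so both neuron libraries were lower. Snora61 had 2111 and 2853 CPM in proliferating cells and 2548 and 2076 CPM in neurons, where the highest and lowest values both belonged to replicate 2.

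The next RNAs in order were Snora74a with a mean of 2342 CPM over the 4 libraries, Snora64 with 2212, Snora81 with 1937, Snora44 with 1697, Snora33 with 1334, Snora62 with 1309, Snora21 with 1083 and Snora16a with 908. Snora62, from the laminin receptor and ribosomal protein gene Rpsa, varied least of all members. It had 1296 and 1355 CPM in proliferating cells and 1325 and 1261 CPM in neurons, a highest value 1.07 times the lowest. Snora61, Snora44 and Snora16a all come from Snhg12, and Snora17 and Snora43 from Snhg7, so these RNAs share a precursor transcript and are not independent of each other.

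**Figure D2:**
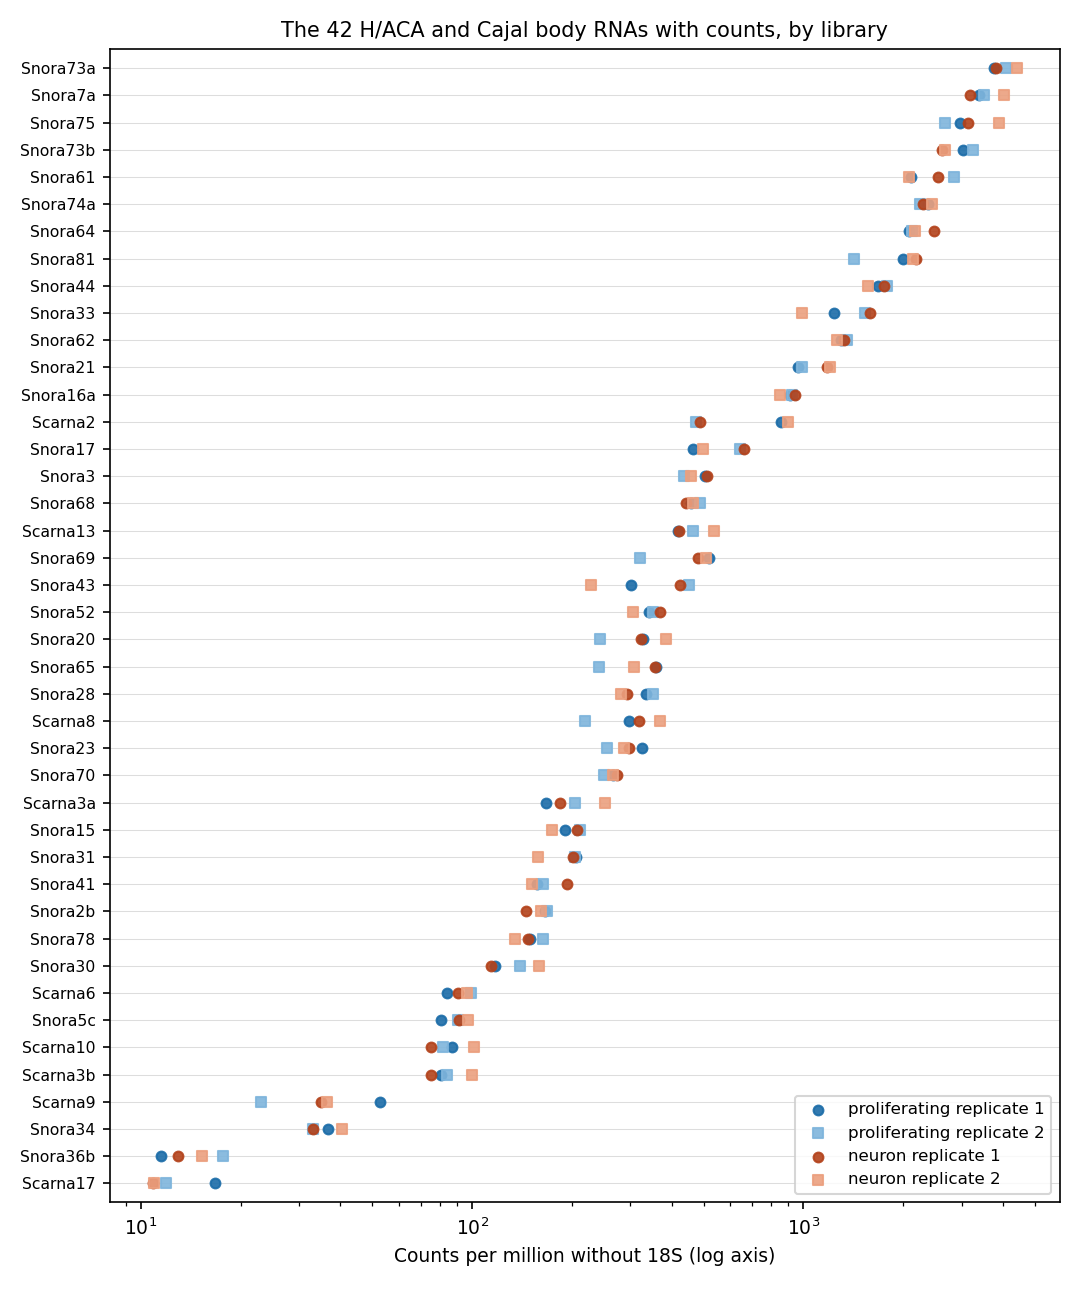
Each row is 1 of the 42 RNAs with counts, ordered by mean level, and each point is 1 library on a log axis of CPM without 18S. Levels run from about 4013 for Snora73a down to 12.6 for Scarna17 (means of 4 libraries), and for most RNAs the 4 points lie within a factor of 1.5.

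Because a longer RNA can give more fragments, levels were also set per kilobase. Whether length acts this way on RNAs this short was not tested. The lengths behind the deposited RPKM values equalled the RefSeq lengths for 42 of 42 RNAs. On that scale Snora61 led with 38662 CPM per kilobase, followed by Snora7a with 27346, Snora75 with 27312, Snora73a with 19574 and Snora64 with 18908. The RefSeq entry of Snora61 is 62 bases long, against 130 in GENCODE, and with the latter its level was 18439 and its rank 4. Scarna2 is the extreme case, with 61 bases in RefSeq and 414 in GENCODE, and its level moved from 11124 (rank 11) to 1639 CPM per kilobase (rank 26). In all, 11 of the 42 RNAs had a GENCODE length more than 20 bases above the RefSeq one, and their order per length depends on the annotation. The same counts were divided by either length, and reads were not recounted over the GENCODE spans.

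Among the Cajal body RNAs, Scarna2 had the most counts, with 854 and 474 CPM in proliferating cells and 487 and 899 CPM in neurons. The high values belonged to proliferating replicate 1 and neuron replicate 2, so the groups overlapped fully. Scarna13, a double H/ACA RNA within Snhg10, had 418 and 464 CPM in proliferating cells and 421 and 539 CPM in neurons. Scarna8 had 298 and 219 CPM in proliferating cells and 319 and 369 CPM in neurons, the one Cajal body RNA whose neuron libraries were both higher. Scarna3a had 167 and 205 CPM against 184 and 251 CPM, and its relative Scarna3b, 85.7% identical in an alignment, had 80.6 and 84.0 CPM against 75.3 and 99.7 CPM. The groups of both overlapped. Scarna6 (84.0 and 99.4 against 90.6 and 96.5 CPM) and Scarna10 (86.9 and 81.7 against 75.1 and 101.4 CPM) also overlapped. Scarna9 varied most of all 42 RNAs, with 52.7 and 23.1 CPM in proliferating cells and 35.1 and 36.4 CPM in neurons, a highest value 2.28 times the lowest. Scarna17, the least counted, had 16.7 and 11.9 CPM in proliferating cells and 10.9 and 10.98 CPM in neurons, from 31 to 58 counts.

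No H/ACA or Cajal body RNA passed the test between neurons and proliferating cells. All 42 RNAs with counts were tested, and edgeR's quasi-likelihood test called 0 of them after Benjamini-Hochberg adjustment over all 12783 genes, the lowest adjusted p being 0.9998. It also gave 0 of them an unadjusted p under 0.05, and DESeq2 called 0. The test called 0 of the 12783 genes as well (0%), so the absence of calls is not particular to these RNAs. Of all genes, 117 on the higher and 321 on the lower side had an unadjusted p under 0.05, and DESeq2 called 59. The biological coefficient of variation that the fit gave these RNAs had a median of 0.364, against 0.430 over all genes. Fitted log2 fold changes lay between -0.28 and 0.53, with a median of 0.13, and 33 RNAs were on the higher and 9 on the lower side in neurons. Over all genes tested the median was 0.02, with 6651 on the higher and 6132 on the lower side. The lean to the higher side depended on the scale. With library size alone, 18S included, 10 were on the higher and 32 on the lower side with a median of -0.13. In that fit 3627 of all genes were on the higher and 9156 on the lower side, with a median of -0.27.

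The highest fitted log2 fold changes belonged to Scarna8 at 0.53 (SE 0.43), Snora81 at 0.46 (SE 0.37), Snora20 at 0.43 (SE 0.43), Snora75 at 0.43 (SE 0.37) and Snora21 at 0.37 (SE 0.40). Their errors are about as large as the differences. The lowest were Scarna17 at -0.28 (SE 0.50), Snora28 at -0.17 (SE 0.43), Snora73b at -0.17 (SE 0.37), Snora43 at -0.17 (SE 0.51) and Snora31 at -0.11 (SE 0.43), all well within their errors. Without proliferating replicate 2 the fitted values of Snora28, Snora73b, Snora43 and Snora31 were above 0, at 0.04, 0.07, 0.35 and 0.06. Without neuron replicate 2 that of Snora43 was 0.16.

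Differences within replicate pairs, formed by replicate number, were small and mostly disagreed. That pairing is an assumption. Deviations of same-numbered libraries from their group means correlated at 0.36 over 7294 genes but at -0.38 over 40 of these RNAs. The signs and sizes of the pair differences depend on it. In log2 CPM, 11 of the 42 RNAs were higher in neurons in both pairs, 7 were lower in both, and 24 had opposite signs, 12 each way. Over 12566 genes with counts in all libraries, 52.8% had the same sign in both pairs, against 18 of 42 here. The median absolute difference was 0.12 in pair 1 and 0.26 in pair 2, beside 0.15 between the proliferating replicates and 0.21 between the neuron replicates. Neurons therefore differed from proliferating cells by about as much as replicates of one group differed from each other. No RNA reached a 2-fold difference in either pair, 3 passed 1.5-fold in pair 1 and 8 did so in pair 2.

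Taken over the 42 RNAs, the spread between replicates exceeded counting error. A chi-square over the 42 RNAs was 42.2 per degree of freedom between the proliferating replicates and 64.7 between the neuron replicates. The widest disagreements between pairs belonged to Scarna2 (log2 differences -0.81 and 0.92) and Snora43 (0.49 and -0.98). Scarna9 (-0.59 and 0.66) was of the Scarna2 kind, lower in pair 1 and higher in pair 2. Snora33 (0.36 and -0.63), Snora17 (0.51 and -0.37) and Snora61 (0.27 and -0.46) ran the other way. For 12 RNAs, these 6 among them, the counting intervals of the 2 pair ratios lay on opposite sides of 1.

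**Figure D3:**
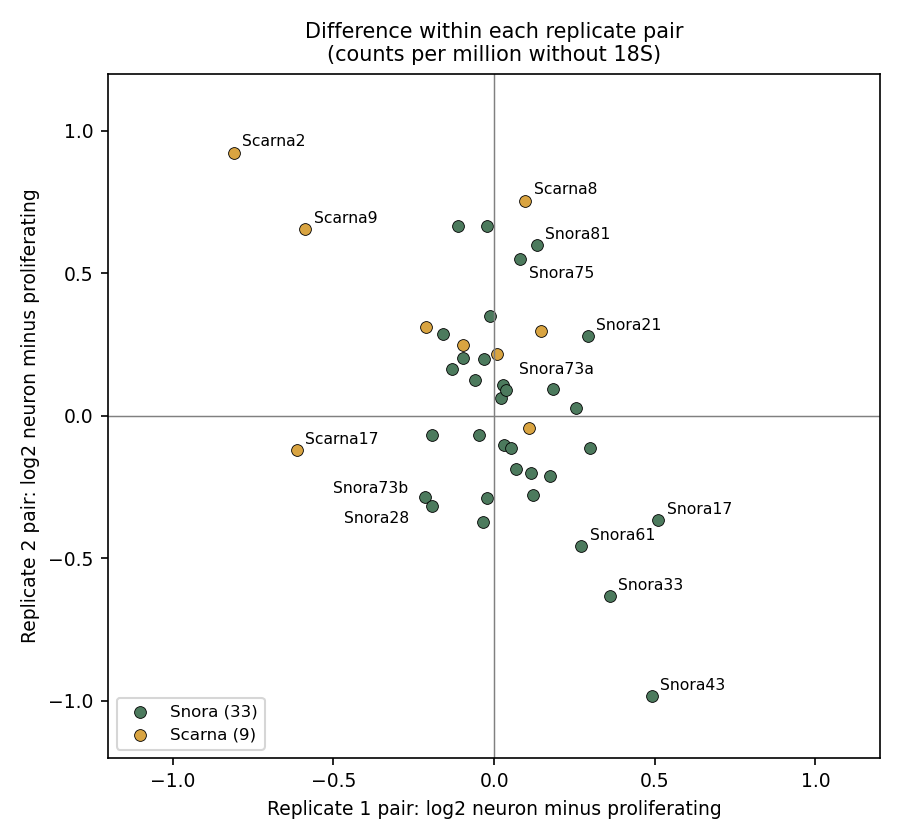
Each point is 1 of the 42 RNAs, with the log2 difference of neuron minus proliferating CPM in replicate pair 1 on the horizontal and in pair 2 on the vertical axis. The 11 RNAs at upper right were higher and the 7 at lower left lower in neurons in both pairs, and Scarna2 and Snora43 are the far points of the other 24.

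For some RNAs the groups did not overlap. With so few libraries, such an order is common without any group difference, and the number of these RNAs was not tested. Without the 18S row, 6 of the 42 RNAs were higher in both neuron libraries than in both proliferating ones, beside 7.85% of all genes. They were Snora75, Snora64, Snora81, Snora21, Snora5c and Scarna8. Another 6 of the 42 were lower in both, a smaller part than the 21.3% of all genes. They were Snora73b, Snora28, Snora31, Snora2b, Snora78 and Scarna17. On the TMM scale 11 of the 42 were higher without overlap, beside 12.9% of all genes, and 1 was lower, beside 14.5%. The RNAs higher on both scales were Snora75, Snora64, Snora81, Snora21 and Scarna8, and the RNA lower on both was Scarna17.

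Of these, Snora21 was the most even. Its level was 961 and 992 CPM in proliferating cells and 1177 and 1204 CPM in neurons, with log2 differences of 0.29 and 0.28 in the pairs. On this scale the replicates of each group lay close together and the groups apart. On the TMM scale it had 274 and 349 CPM against 381 and 425 CPM, where the proliferating replicates differed more. Snora81 had 1995 and 1418 CPM in proliferating cells and 2187 and 2148 CPM in neurons, where the low value of proliferating replicate 2 made up most of the gap (0.13 and 0.60 in the pairs). Snora75 also differed mainly in pair 2 (0.08 and 0.55), where its neuron library was the highest of the 4. Snora64 had 2078 and 2125 CPM against 2481 and 2164 CPM, with 0.26 and 0.03 in the pairs, so its replicate 2 libraries barely differed. For Snora21, Snora75 and Snora81 the counting interval of the ratio was above 1 in both pairs. For Snora28 and Snora73b it was below 1 in both, with log2 differences of -0.19 and -0.32 for the former and -0.22 and -0.28 for the latter. These intervals cover counting error only, and taken over the RNAs with counts the spread between replicates exceeded it. None of these RNAs passed the edgeR test.

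The proportion of the near-identical Snora73 RNAs needs no scale. Snora73b made up 44.7% of the counts of the pair in proliferating replicate 1 (95% exact interval 44.1% to 45.4%) and 44.4% in proliferating replicate 2 (43.7% to 45.1%). In the neurons it made up 40.6% in replicate 1 (40.0% to 41.2%) and 37.8% in replicate 2 (37.2% to 38.4%). The proliferating replicates agreed within counting error, and both neuron libraries were lower, although the neurons also differed from each other by more than counting error. The pair was singled out after its values were seen, and this proportion was not tested between the groups. How reads that match both copies were counted is not stated. The longest stretch without a difference is 56 bases, and a shorter fragment could match both copies, so the counts of each copy are uncertain. For comparison, Scarna3b made up 32.6% and 29.1% of the Scarna3 counts in proliferating cells and 29.0% and 28.4% in neurons. Snora43 made up 39.4% and 41.2% of the counts of Snora17 and Snora43 against 39.05% and 31.3%, where only neuron replicate 2 stood apart.

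**Figure D4:**
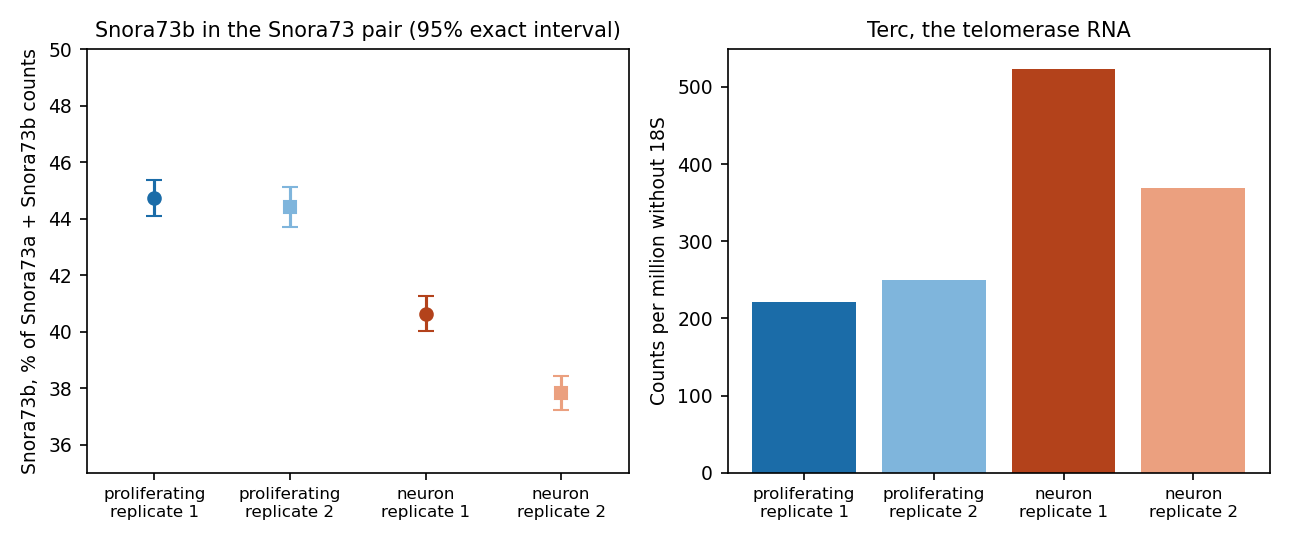
Left, Snora73b as a percent of the summed Snora73a and Snora73b counts in each library, with exact 95% intervals (axis from 35% to 50%). Right, CPM without 18S of Terc, the telomerase RNA. Snora73b lies at 44.7% and 44.4% in proliferating cells and at 40.6% and 37.8% in neurons, and Terc is higher in both neuron libraries.

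As a group these RNAs varied less between libraries than other genes. The highest library was a median of 1.27 times the lowest for the 42 RNAs (range 1.07 to 2.28), 1.32 for 70 Snord RNAs and 2.32 for the 12392 genes that averaged at least 10 counts. Low counts widen this ratio, so it was repeated at a mean count of at least 500. There the medians were 1.27 for 32 of the RNAs, 1.32 for 54 Snord RNAs and 1.77 for 730 genes. Of the RNAs 75% stayed within 1.5-fold, against 87.0% of the Snord RNAs and 35.2% of the genes, so the narrow spread is not particular to these RNAs. On the TMM scale the same medians were 1.38, 1.52 and 1.83, in the same order. These are descriptions without a test.

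The host genes, which carry these RNAs on the same strand, mostly had a wider spread over the libraries than the RNAs themselves. A host was found for 39 of the 42 RNAs, in 34 genes, of which 11 encode ribosomal proteins. Snhg genes, which are spliced host transcripts of small RNAs, carried 9 of the RNAs. For Scarna2 no containing gene was found. Snora74a lies within the RefSeq span of Snhg4 and Scarna17 within that of Gm41774, but the strand of these genes was not at hand, so they were not counted as hosts. For 34 RNAs whose host had a mean count of at least 50, the median of the highest over the lowest library was 1.29 for the RNAs and 1.83 for their 30 hosts, counted once for each RNA. The host varied more in 31 of the 34. The exceptions were Snora33 in Rps12, Snora20 in Tcp1 and Snora65 in Rpl12. Many hosts had far fewer counts than their RNAs, and low counts widen this ratio. Snhg12, for one, had 72 to 106 counts per library, beside 7186 to 9812 for Snora61. The comparison was not repeated at matched counts, so the part of counting error in it was not tested. The RNA and its host had the same sign in 15 of 34 cases in pair 1 and in 24 of 34 in pair 2.

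The gap was widest where the host was lowest in proliferating replicate 2. Ncl, which encodes nucleolin, had 3542 and 947 counts in proliferating cells and 4319 and 2008 in neurons, a 3.07-fold range in CPM, while Snora75 within it had a 1.46-fold range. Cep295, a centriole gene, had 401 and 34 counts in proliferating cells and 372 and 165 in neurons, an 8.81-fold range, against 2.28-fold for Scarna9. Haus6, which encodes a part of the augmin complex of the spindle, had 317 and 46 counts against 321 and 191, a 5.15-fold range, while Scarna8 had a 1.69-fold range. In these 3 cases the small RNA was also lowest in proliferating replicate 2, but by less. Cop1, a ubiquitin ligase gene, had 141 and 29 counts against 213 and 108, whereas Scarna3a within it was lowest in proliferating replicate 1. Ipo7, which encodes an importin, had 1890 and 250 counts against 2298 and 1066, a 6.20-fold range, against 1.28-fold for Snora23, an RNA named after its values were seen. Reads from an unspliced or retained host could add to an RNA's count: 19 of the 42 RNAs overlapped and 16 lay wholly inside a host exon of some GENCODE transcript. Their part in these levels was not tested.

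**Figure D5:**
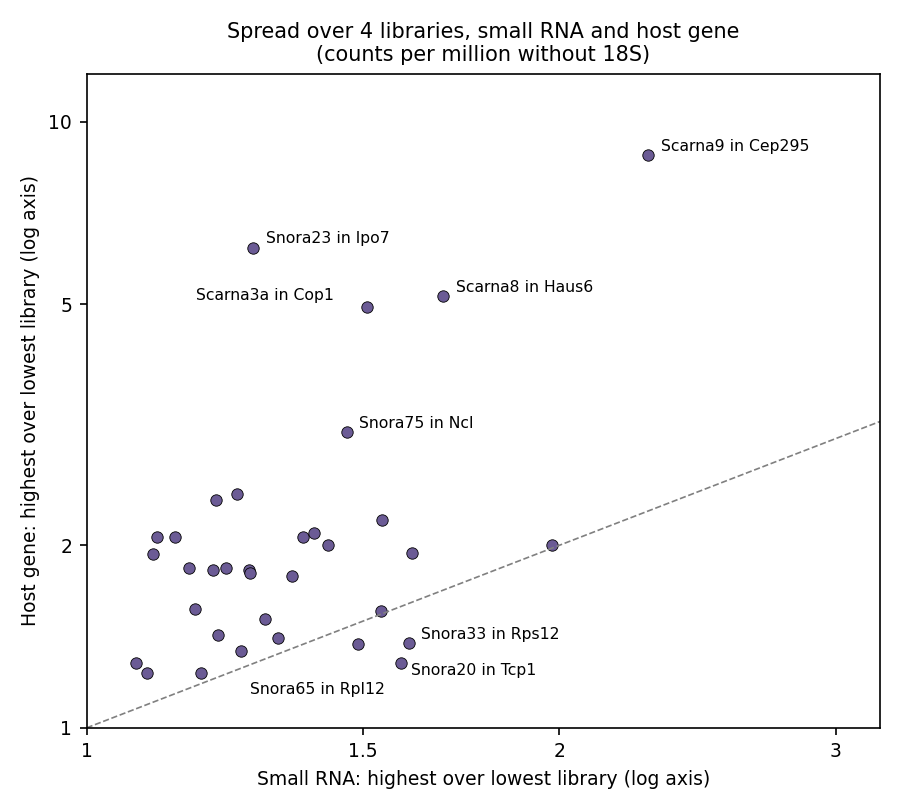
Each point is 1 of the 34 RNAs whose host gene has a mean count of at least 50, with the highest over the lowest library of the RNA on the horizontal and of its host on the vertical axis, both on log axes of different range. The dashed line marks equal spread, and 31 of the 34 points lie above it.

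The 6 RNAs at 0 in all libraries were Snora19, Snora24, Snora26, Snora35, Snora47 and Snora57. A count of 0 allows up to 3 counts, or 0.779 to 1.16 CPM depending on the library, well below the 10.9 CPM of Scarna17 in its lowest library. Their hosts were not all silent. Dancr, which carries Snora26 within an exon of a transcript, had 7238 and 5004 counts in proliferating cells and 8421 and 7181 in neurons. Snhg8, the host of Snora24 in the same arrangement, had 179 and 178 counts against 340 and 273, and Eif3a, the host of Snora19, 1521 and 405 against 1794 and 805. Htr2c, a serotonin receptor gene that carries Snora35, was itself at 0. How reads that overlap both an RNA and its host were assigned is not stated, which bears on Snora24 and Snora26. Another 16 RNAs, with counts, also lie wholly inside a host exon, Snora7a and Snora75 among them. Snora19, Snora35 and Snora47 overlap no annotated host exon, and the host of Snora57 is not in GENCODE. The reason for the zeros was not tested, and they do not show that the RNAs are missing from the cells.

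Protein and RNA genes around these RNAs gave no calls either. The list holds 30 genes: H/ACA core proteins (4), assembly factors (5), Cajal body genes (9), telomerase (2), end processing and decay of small RNAs (6) and, for comparison, box C/D proteins (4). Of these 29 were tested, edgeR called 0 in either direction, 0 had an unadjusted p under 0.05, and DESeq2 called 0. The median log2 fold change of the whole list was -0.25, with 11 on the higher and 18 on the lower side, beside a median of 0.02 over all genes. Without the decay and box C/D genes 19 were tested, with a median of -0.30, 6 on the higher and 13 on the lower side. With library size alone 2 of the 29 were on the higher and 27 on the lower side, beside 3627 and 9156 of all 12783 genes. The core proteins were low in counts beside the RNAs they bind. Dkc1, which encodes dyskerin, had 249 and 83 counts in proliferating cells and 257 and 132 in neurons (log2 fold change 0.14, SE 0.53). Nhp2 had 130 and 141 counts against 198 and 144 (0.08, SE 0.50), Nop10 59 and 47 against 52 and 42 (-0.37, SE 0.49), and Gar1 186 and 154 against 182 and 125 (-0.36, SE 0.47). All 4 lay within their errors.

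The 5 assembly factors, among them Naf1, Shq1 and the ATPase Ruvbl2, had values from -0.41 to -0.15, all on the lower side and none past the test. The 6 genes of end processing and decay, among them the deadenylase gene Parn and the exosome gene Exosc10, had values from -0.36 to 0.39 with a median of 0.23, 4 on the higher and 2 on the lower side. Among Cajal body genes, Nolc1, a nucleolar and Cajal body chaperone of these particles, had 502 and 449 counts in proliferating cells and 415 and 299 in neurons (-0.64, SE 0.46). Coil, which encodes coilin, the scaffold of Cajal bodies, had 56 and 53 counts against 39 and 46 (-0.56, SE 0.53), and Smn1 77 and 92 against 69 and 53 (-0.74, SE 0.53). For these 3 genes both neuron libraries were lower in CPM than both proliferating ones, as were 21.3% of all genes. The same held for Gemin4, Gemin5, Nop10, Gar1, Shq1, Ruvbl1, Ruvbl2 and Nufip1. It also held for Exosc10 of the decay genes and Snu13 of the box C/D genes, while Terc was higher in both neuron libraries. Of the 19 tested core, assembly, Cajal body and telomerase genes, 13 were lower in neurons in both replicate pairs and 1 was higher in both. The part of all genes that was lower in both pairs was not computed. On this scale 21.3% of all genes were lower without overlap and 7.85% higher, beside 14.5% and 12.9% on the TMM scale. Gemin2 lay highest of the 9, with 33 and 7 counts against 27 and 30 (0.51, SE 0.70), and its low value belonged to proliferating replicate 2. Wrap53, whose protein carries Cajal body RNAs to that body, had 27 and 19 counts against 27 and 32 (0.21, SE 0.58).

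Terc, the telomerase RNA, is itself built as an H/ACA RNA with a Cajal body box, although its symbol keeps it out of the 48 rows. It had 768 and 648 counts or 221 and 249.7 CPM in proliferating cells, and 2013 and 1276 counts or 523 and 369 CPM in neurons. Both neuron libraries were higher, with log2 differences of 1.24 and 0.56 in the pairs. The fitted log2 fold change was 0.99 (SE 0.45), larger than that of every one of the 42 RNAs, with an unadjusted p of 0.061 and an adjusted p of 0.9998 in edgeR's quasi-likelihood test over all genes. Tert, the protein partner of Terc in telomerase, was listed at 0 in all 4 libraries.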

How the data were processed

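Total RNA of 4 libraries was depleted of ribosomal RNA with an NEBNext kit and made into libraries with a Takara SMARTer stranded kit, per the labels' protocols. The authors deposited a raw read count per gene and an RPKM value per gene for each library. The deposited RPKM values gave 1 length per gene, the same in all 4 libraries. The submitters' processing notes name mm10, HISAT2, SAMtools, featureCounts, DESeq2 and deepTools 3.4.3, with no role for each. The annotation, the use of strand in counting and the treatment of reads with several matches are not given in the sources used here. The protocol gives an average library size of about 300 bases with adaptors, and how that size bears on RNAs this short was not tested.

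Groups and replicate numbers come from the titles. The test was edgeR 4.0.16 (R 4.3.3) with TMM factors, filterByExpr (minimum count 10, minimum total 15), glmQLFit and glmQLFTest, fitted to all 4 libraries with no term but the group. A call is a Benjamini-Hochberg adjusted p under 0.05 over all genes tested, two-sided. CPM without 18S is the count scaled to 1000000 counts outside Rn18s-rs5, with no prior count for the small RNAs. Host genes and positions come from RefSeq on GRCm38 and GENCODE M21, with 48 of 48 rows matched in both. The fit was tested on simulated counts.

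The rule for naming took the 15 most counted RNAs, all Scarna rows with at least 10 counts, the 5 largest fitted changes each way, any called RNA, any changed by at least 2-fold in both pairs, the pathway list and the hosts of named RNAs. Other names were chosen after their values were seen. The members and lists were chosen with earlier results of these data known. Both replicate 2 titles carry the words set 2, so the numbers were taken to mark a shared set, which is not explained further. Deviations of same-numbered libraries from their group means correlated at 0.36 over 7294 genes and at -0.38 over 40 of the small RNAs. Alternatives were RLE size factors, library size alone, DESeq2 1.42.0, 2 gene filters, limma-trend (limma 3.58.1) on log2(RPKM + 1) and log2(RPKM + 0.1), the 18S row left out, a replicate block, each library left out, and other denominators. The TMM-scaled share, GENCODE lengths, the pathway list in these fits and Terc were added after the data were seen. Python 3.11.15 with pandas 2.3.3 and scipy 1.17.1 gave the other values.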

Additional observations from a re-analysis of the deposited data

How the results depend on the processing

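No alternative called any of the 42 RNAs. The lowest adjusted p of any of them in any setting run was 0.448 (without proliferating replicate 1), and of a pathway gene 0.136. The 42 RNAs' median log2 fold change, 0.13 as reported, was -0.13 with library size alone, where the median of all genes shifted by -0.29, -0.086 on log2(RPKM + 1) and -0.086 on log2(RPKM + 0.1), 0.17 without a gene filter, and -0.040 to 0.29 with each library left out. The pathway median was -0.47 with library size alone, -0.38 on log2(RPKM + 0.1) and -0.32 to -0.078 with each library left out. The share of counts, 3.54% and 3.68% in the groups, was 1.27% and 1.18% of all counts, 3.90% and 4.001% without Rnu3a and AY036118, and 3.15% and 3.27% without Snora73a. With each library left out it was 3.52% to 3.56% and 3.63% to 3.72%. The ratio of neuron to proliferating shares was 0.934 over all counts, 1.03 without Rnu3a and AY036118, 1.10 on the TMM scale, and 1.03 to 1.05 with each library left out.

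Of 143 fitted values of single genes under 13 alternatives, 138 kept their sign and their side of the threshold. The others were Snora28 (0.040), Snora73b (0.065), Snora43 (0.35) and Snora31 (0.060) without proliferating replicate 2, and Snora43 (0.16) without neuron replicate 2. With each library left out, the 4 ran from -0.38 to 0.040 for Snora28, -0.39 to 0.065 for Snora73b, -0.65 to 0.35 for Snora43 and -0.28 to 0.060 for Snora31. The cause was not tested. The fit with the replicate block called 0 of the 42 RNAs, with a median of 0.14, and changed no call among them. Over all genes, where the reported fit called 0, DESeq2 called 59, the fit without a gene filter 163, the replicate block 3, library size alone 2, log2(RPKM + 1) 1 and log2(RPKM + 0.1) 2, and the fits with each library left out 18 to 113. Depth limits the RNAs at 0 and those of few counts such as Scarna17. Pooled over the 42 RNAs the spread between replicates exceeded counting error, which was not computed for each RNA. Where a library was left out, the lone library of its group was assumed to vary like the others.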
